A study of Mus musculus with 32 samples.

Results

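The comparison described here is that of whole blood from ATM-deficient mice given 4 Gy of X rays with whole blood from ATM-deficient mice given 0 Gy. Its members are the 11 of 32 arrays whose titles name those genotypes and doses, 6 irradiated and 5 unirradiated, and all genes detected on the arrays. All 11 animals were male C57BL/6 mice of the labelled genotype ATM-/-, so the unirradiated controls lacked ATM as well. Blood was drawn by cardiac puncture at 24 h into PAXgene solution, globin transcripts were removed from its RNA, and the Cy3-labelled product was read on 1-colour Agilent arrays, with 1 array per mouse. Each genotype received the dose lethal to 50% of its mice within 30 days, and controls were sham-irradiated. The same study held wild-type mice (8 Gy, 5 arrays, and 0 Gy, 6 arrays) and Scid mice (3 Gy, 5 arrays, and 0 Gy, 5 arrays). Dose and genotype therefore change together across the 3 genotypes. The labels give no age for the animals, and no label ties 1 irradiated mouse to 1 control.

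ATM is the protein kinase that senses DNA double-strand breaks and phosphorylates p53, its ubiquitin ligase Mdm2 and the checkpoint kinase Chk2. Stabilised p53 then transcribes genes of growth arrest, such as Cdkn1a, and of apoptosis, such as Bax and Bbc3. Other kinases, among them ATR and the DNA-dependent protein kinase that Scid mice lack in active form, can also act on broken DNA. In blood, resting B cells are among the cells most readily killed by radiation. Reticulocytes, the youngest red cells in blood, keep RNA for a short time only and are replenished from dividing precursors in marrow and, in mice, spleen.

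Among the genes that passed the test, those of B cells and of red cells were lower after 4 Gy, and promoters of 4 of them are shown because they carry short motifs of lineage factors. Positions are in the RefSeq promoter table for GRCm38.p6, which matched 25 of the 36 genes. The octamer, whose letters ATTTGCAT or ATGCAAAT are read by POU-domain factors of B cells, stood in the 250 bases before the start of Vpreb3 (chr10:75948050-75948299, plus strand) and of 1 of the 2 listed starts of Ccr6 (chr17:8235793-8236042, plus strand). AGATAA or TTATCT, letters bound by GATA factors of red cells, stood before Epb42 (chr2:121036878-121037127, minus strand) and Mpp1 (chrX:75131017-75131266, minus strand). Each sequence is written 5′ to 3′ on the strand of its gene, with the motif in capitals.
Vpreb3: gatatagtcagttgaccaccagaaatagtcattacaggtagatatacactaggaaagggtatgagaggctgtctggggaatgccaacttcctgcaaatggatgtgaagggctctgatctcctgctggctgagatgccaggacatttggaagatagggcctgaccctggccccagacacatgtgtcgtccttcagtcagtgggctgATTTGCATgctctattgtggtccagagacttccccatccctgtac
Ccr6: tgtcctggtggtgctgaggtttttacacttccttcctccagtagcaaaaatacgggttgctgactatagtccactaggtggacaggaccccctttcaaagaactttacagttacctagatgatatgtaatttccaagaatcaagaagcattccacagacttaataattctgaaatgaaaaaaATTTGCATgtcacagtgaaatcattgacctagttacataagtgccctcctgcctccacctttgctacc
Epb42: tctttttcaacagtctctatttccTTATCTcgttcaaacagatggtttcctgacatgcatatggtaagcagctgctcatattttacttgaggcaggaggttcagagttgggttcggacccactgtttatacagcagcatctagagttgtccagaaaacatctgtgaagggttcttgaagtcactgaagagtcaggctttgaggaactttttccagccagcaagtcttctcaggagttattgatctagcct
Mpp1: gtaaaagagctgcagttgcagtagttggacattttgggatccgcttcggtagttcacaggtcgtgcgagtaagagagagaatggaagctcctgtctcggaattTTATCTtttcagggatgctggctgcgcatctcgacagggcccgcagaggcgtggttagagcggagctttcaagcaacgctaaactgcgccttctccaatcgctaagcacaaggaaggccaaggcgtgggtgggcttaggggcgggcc
The octamer lay 45 bases before the start in Vpreb3 and 68 in Ccr6, and the GATA letters lay 226 bases before the start in Epb42 and 147 in Mpp1. Of 17 genes that fell and had a listed promoter, 2 held the octamer and 4 held the GATA letters (Ccr6, Epb42, Gzmm and Mpp1). Of 8 that rose, 0 held either. On both strands, 526 of 32851 promoters (1.60%) held the octamer and 3281 (9.99%) held the GATA letters. Both motifs were chosen after the values of the genes were seen, and a match is a description of letters, not a binding site.

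The arrays differed more among the irradiated mice than among the controls. Between 20.02 and 48.1% of gene probes were well above background on the irradiated arrays, against 36.6 to 43.4% on the controls. The median correlation of an array with the others of its group was lowest for irradiated replicate 6, at 0.83, and ran from 0.93 to 0.957 among the controls. A level here is the log2 processed signal of a probe minus the log2 of the 75th percentile of its array, so that 0 marks a signal equal to that percentile. Scan day nearly coincided with dose: irradiated replicate 1 and control replicates 1 to 4 were scanned on day 1, irradiated replicates 2 to 5 on day 2, and irradiated replicate 6 and control replicate 5 on day 3. The array's spike-in control probes stood 4.39 to 5.99 above the 75th percentile on irradiated arrays (median 5.36), against 3.74 to 4.16 on controls (median 4.02). On that scale the median gene was 1.46 lower after 4 Gy, against 0.16 lower on the scale used here. All changes below are therefore relative to the other transcripts of the same array. Neither of the Atm probes was well above background on more than 1 array of any group, so the deleted gene could not be checked by its level. Probes of Hba-a1, S100a9, Cd79a, Cd3e and Pf4, markers of red cells, neutrophils, B cells, T cells and platelets, were well above background on all 11 arrays.

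After 4 Gy, 36 of 15159 genes (0.237%) passed limma's test at an adjusted p under 0.05. There were 25 that fell (0.165%) and 11 that rose (0.0726%). The genes that fell included red cell and B-lineage genes, and 6 of the 11 that rose were well above background on at most 2 of the 5 controls. Over all genes, the mean was lower after irradiation in 9410 (62.1%), and 257 (1.70%) had every irradiated array below every control, against 66 (0.435%) with every irradiated array above. At an unadjusted p under 0.05 there were 1374 lower (9.06%) and 455 higher genes (3.00%). The split depended on the scaling: 14 of 184 called genes were higher when arrays were scaled to their median, 73 of 108 when scaled on probes detected on all arrays, 36 of 339 with the authors' values and 9 of 8602 when scaled to the spike-ins. Leaving out 1 array also moved the count, to 2, 19, 6 and 18 without control replicate 2, 3, 4 or 5, and to 274, 6, 4, 5 and 71 without irradiated replicate 1, 3, 4, 5 or 6. In the same fit 1092 genes (7.20%) passed in wild-type blood and 163 (1.08%) in Scid blood.

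None of the 36 genes passed once scan day was entered as a block, a fit that called 0 genes and left 1059 (6.99%) at an unadjusted p under 0.05. All 36 kept their direction and an unadjusted p under 0.05 in that fit. All 36 kept it too between irradiated replicate 1 and the 4 controls of day 1, and 34 kept it between the single irradiated and the single control array of day 3, the exceptions being Snx15 and Rmc1. For 28 of the 36 the groups did not overlap, against 2.13% of all genes. The 36 were chosen by their p on these same arrays. The counts of kept directions and of separated groups follow in part from that choice and are not independent support. HQ015080, Tmem170b, Gm14308 and ENSMUST00000113046 stayed at background throughout 1 of the groups, so their values in the plot by scan day are fitted ones. Just outside the threshold stood St3gal5, at a log2 difference of -1.64 (limma adjusted p = 0.0512), and just inside it stood Dcps, at 1.63 (limma adjusted p = 0.05 after rounding).

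**Figure D1:**
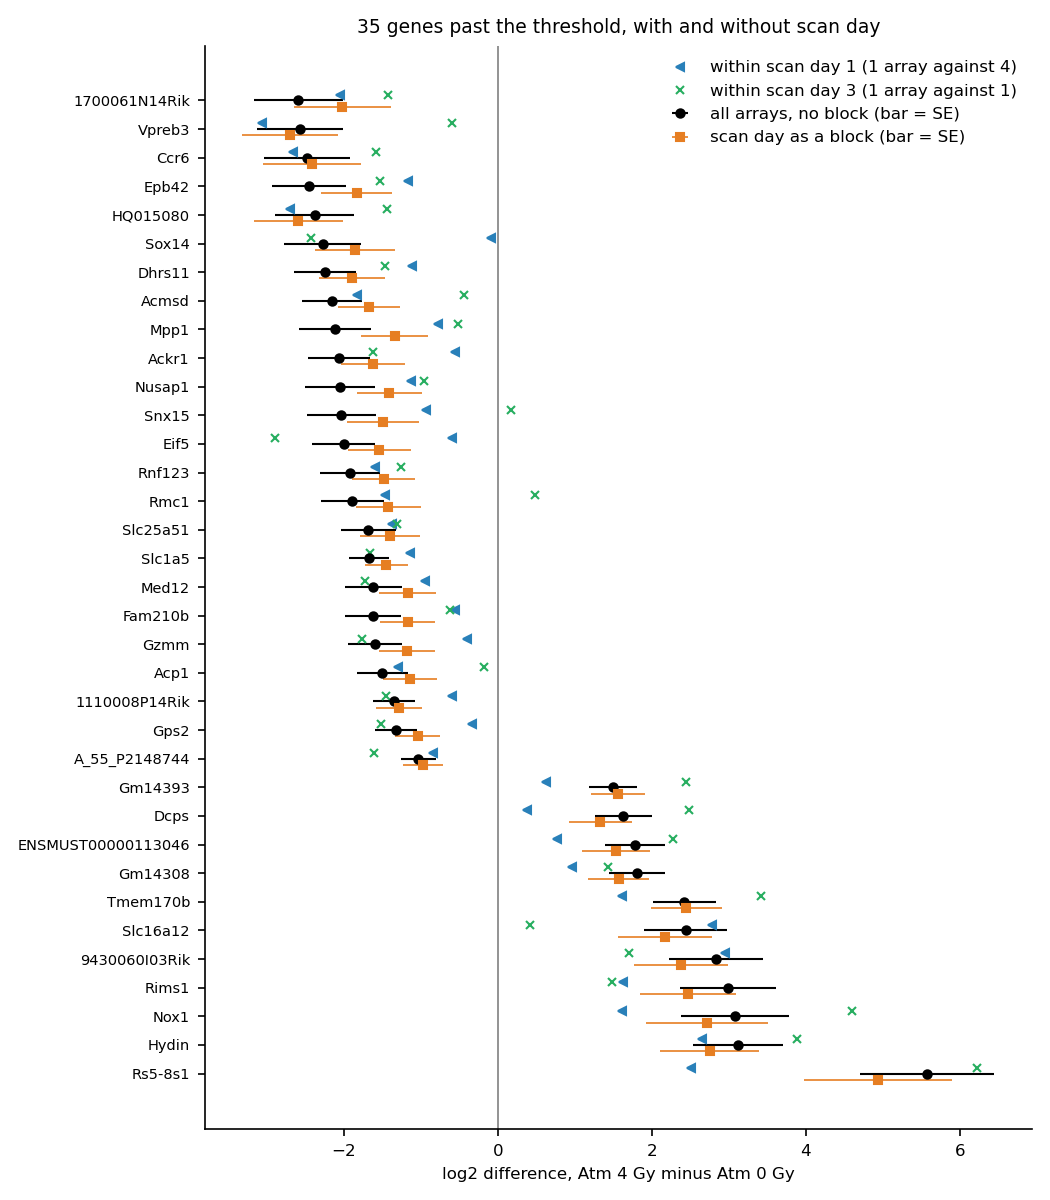
The log2 difference between Atm 4 Gy and Atm 0 Gy (horizontal axis) for 35 of the 36 genes past the threshold, from all arrays, with scan day as a block, and within the days that held both groups. With the block every gene stays on the same side of 0 (Vpreb3 at -2.70, Rs5-8s1 at 4.94), and within day 3 only Snx15 and Rmc1 cross it.

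Of the genes that fell, 20 of 25 (80.0%) were also called lower in wild-type blood, where 6.07% of genes were, and 14 (56.0%) in Scid blood, where 1.02% were. They were 2.17% of the 920 genes lower in wild-type blood and 9.09% of the 154 lower in Scid blood. Of the 11 that rose, Gm14308 and Tmem170b were also called higher in wild-type blood (18.2% of the 11, 1.16% of 172), and 0 in Scid blood, where 0.0594% of genes were. Each genotype had its own controls, but all groups shared a common estimate of spread per gene in the fit.

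Membrane genes of red cells were among those that fell. Epb42 encodes protein 4.2, which ties the anion exchanger band 3 to the membrane skeleton. Its level ran from -0.70 to 1.47 on irradiated arrays (median -0.15), against 2.31, 2.53, 3.30, 2.43 and 2.34 on the controls. All 6 irradiated arrays lay below all 5 controls, and replicate 1 was the highest of the 6. The difference was -2.45 (SE 0.48, limma adjusted p = 0.0218), and -1.83 with scan day as a block. Mpp1, the membrane scaffold p55, ran from 4.34 to 6.85 (median 5.05) after 4 Gy, against 7.51, 7.68, 7.97, 7.37 and 7.11 at 0 Gy, again without overlap. Its difference of -2.11 (SE 0.47, limma adjusted p = 0.0452) was shared by its other probes, at -1.78 and -2.12. Ackr1, the Duffy chemokine receptor of red cells, fell by 2.06 on the log2 scale (SE 0.40, limma adjusted p = 0.0218). Irradiated replicate 1, at 1.29, overlapped the lowest control, at 1.15.

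Slc25a51, Fam210b, Acmsd and Dhrs11 were also among the genes that fell. Slc25a51, which carries NAD into mitochondria, fell by 1.68 (SE 0.36, limma adjusted p = 0.0409), with a second probe at -1.57. Fam210b, a mitochondrial protein of erythroid maturation, fell by 1.62 (SE 0.36, limma adjusted p = 0.0453). Acmsd, a decarboxylase that diverts tryptophan breakdown from NAD synthesis, fell by 2.15 (SE 0.39, limma adjusted p = 0.0149). Replicate 4 stood lowest for Acmsd, at -3.08, and the other irradiated arrays ran up to -0.11, below the lowest control at 0.33. Dhrs11, a short-chain dehydrogenase, ran from 2.81 to 4.80 (median 3.42) after 4 Gy, against 5.79, 6.03, 5.98, 5.87 and 5.55 at 0 Gy. Its groups did not overlap, and the difference was -2.24 (SE 0.40, limma adjusted p = 0.0140).

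B-lineage genes were also among those that fell. Vpreb3, an accessory protein of immunoglobulin heavy chains in B-lineage cells, ran from -1.15 to 0.88 (median -0.58) after 4 Gy, against 2.71, 2.77, 1.70, 2.32 and 1.48 at 0 Gy. The groups did not overlap, and irradiated replicate 6 was the highest of its group. The difference was -2.57 (SE 0.56, limma adjusted p = 0.0425), and -2.70 with the scan-day block. Ccr6, a chemokine receptor of mature B cells, ran from -2.60 to -0.01 (median -1.16) in irradiated blood, against 1.9, 1.41, 0.63, 1.44 and 1.57 in control blood. It did not overlap either, with a difference of -2.48 (SE 0.56, limma adjusted p = 0.0453). HQ015080 is the array's name for a clone of an immunoglobulin light chain variable region. Its 60-base probe lies at chr6:70523164-70523223 (mm9) and is shown because the transcript has no entry in the promoter table.
HQ015080: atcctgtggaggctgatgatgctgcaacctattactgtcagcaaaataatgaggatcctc
It was well above background on 0 of 6 irradiated arrays and on 5 of 5 controls, so it was at least 2.06-fold lower after 4 Gy (measured means -3.05 and -0.67, limma adjusted p = 0.0425). In bulk blood, fewer B cells and less RNA per B cell cannot be told apart, and the same holds for every cell type below.

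The remaining genes that fell were of mixed function. Nusap1, which bundles microtubules in the mitotic spindle, ran from 1.81 to 3.84 (median 2.70) in irradiated blood, against 4.84, 4.95, 5.36, 4.74 and 4.07 in control blood. The groups did not overlap and the difference was -2.05 (SE 0.45, limma adjusted p = 0.0425). Slc1a5, a transporter of glutamine and other neutral amino acids, had the smallest adjusted p of the genes that fell. It ran from -0.24 to 0.78 (median 0.18) after 4 Gy, against 1.81, 2.06, 1.62, 2.17 and 1.92 at 0 Gy, a difference of -1.67 (SE 0.26, limma adjusted p = 0.00315). It stayed past the threshold whichever of the 11 arrays was left out, and Rs5-8s1 was the only other gene that did. Gzmm, the serine protease granzyme M of natural killer and other cytotoxic cells, ran from -3.40 to -1.01 (median -2.24), against a lowest control of -0.98. The gap between the groups was small, with irradiated replicate 1 next to control replicate 3, and the difference was -1.60 (SE 0.35, limma adjusted p = 0.0425). Gzmm lay near background after 4 Gy, being well above it on 2 of 6 irradiated arrays and on 5 of 5 controls. With normexp background correction its difference was -0.12.

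Regulators of transcription, translation and protein turnover were among them too. Med12, of the Mediator kinase module, fell by 1.62, Gps2, a subunit of a nuclear corepressor complex, by 1.32, and Sox14, a transcription factor best known in neurons, by 2.27. Sox14 lay near background, being well above it on 4 of 5 controls and 1 of 6 irradiated arrays, and its groups overlapped. Its difference was -0.43 with the authors' values and -0.09 within scan day 1. Eif5, which triggers GTP hydrolysis at the start codon, fell by 2.0 and Rnf123, a ubiquitin ligase subunit, by 1.92. Snx15, a sorting nexin of endosomes, fell by 2.03 and Rmc1, which acts in endosome and lysosome traffic, by 1.89. Acp1, a low molecular weight tyrosine phosphatase, fell by 1.5, with its other probes at -1.57, -0.88 and -1.35. The long noncoding RNA 1700061N14Rik fell by 2.59, and 1110008P14Rik and an unnamed probe, A_55_P2148744, by 1.35 and 1.03. Limma adjusted p-values of these 11 ran from 0.0252 to 0.0453.

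**Figure D2:**
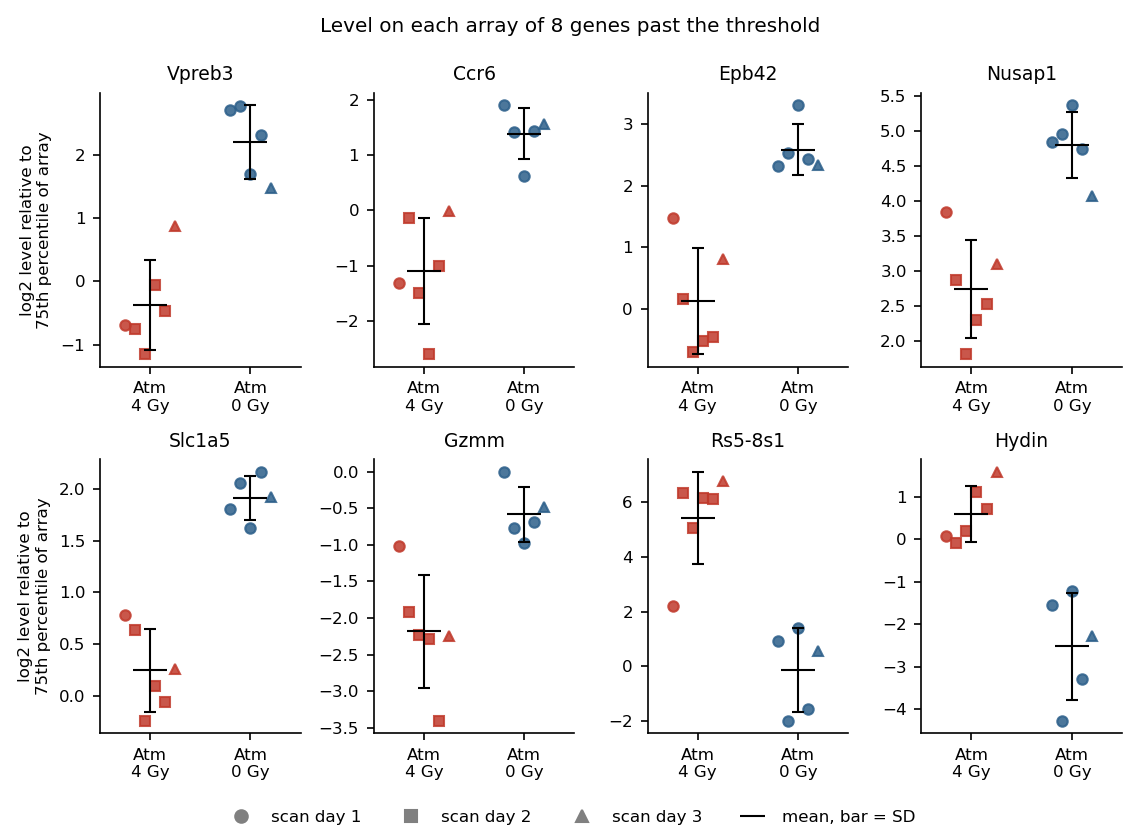
Level on each array (vertical axis, log2 relative to the 75th percentile of the array) of 8 genes past the threshold, Atm 4 Gy on the left and Atm 0 Gy on the right of each panel, with marker shape for scan day and mean and SD in black. In each of the 8 the irradiated arrays lie wholly to 1 side of the controls, as for Slc1a5, with 0.78 the highest irradiated level and 1.62 the lowest control level.

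The gene that rose most was Rs5-8s1, annotated on the array as 5.8S ribosomal RNA. Its 60-base probe is shown because the signal of a single probe carries the result.
Rs5-8s1: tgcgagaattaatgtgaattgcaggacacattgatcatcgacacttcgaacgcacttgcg
Irradiated levels were 2.20, 6.33, 5.08, 6.15, 6.12 and 6.78, against 0.92, -1.99, 1.40, -1.55 and 0.55 at 0 Gy. Replicate 1, the irradiated array of day 1, was the lowest of the 6 but above every control. The difference was 5.58 (SE 0.87, limma adjusted p = 0.00315), 4.94 with the scan-day block, 2.51 within day 1 and 6.23 within day 3. In the other genotypes the probe ran from -1.33 to 3.04, except for 1 Scid 3 Gy array at 5.77. That Scid array was scanned on day 2, and the other Scid and wild-type arrays of day 2 ran from -0.18 to 1.88.

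Hydin, a protein of the central apparatus of motile cilia, ran from -0.09 to 1.59 (median 0.45) after 4 Gy, against -1.54, -4.27, -1.22, -3.30 and -2.29 at 0 Gy. The groups did not overlap, and only 2 of the 5 controls were well above background. The difference was 3.12 (SE 0.59, limma adjusted p = 0.0196) and 2.75 with the scan-day block. The median of Hydin was -0.51 in wild-type 8 Gy blood and -0.96 in wild-type 0 Gy blood, so the ATM-deficient controls, at -2.29, were also the lowest of these groups. Of 3 tested members of a motile cilium list of 15, Hydin was the only one called, and Dnaic1, an axonemal dynein intermediate chain, stood at -1.52 (limma adjusted p = 0.0827).

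The other genes that rose differed in how far the controls stood above background. On the scale of levels, the lowest signal well above background was -1.57 to -0.72 on irradiated replicates 2, 4, 5 and 6. It was -2.23 and -3.02 on irradiated replicates 1 and 3, and -2.43 to -1.74 on the controls. The part of this limit in the rises was not tested. Nox1, the catalytic subunit of an epithelial NADPH oxidase, ran from -1.5 to 0.97 (median -0.16) in irradiated blood, against -2.08, -4.53, -1.98, -3.85 and -3.68 in control blood, where 1 of 5 arrays was well above background. It rose by 3.08 (SE 0.70, limma adjusted p = 0.0453). Rims1, a scaffold of presynaptic release sites, rose by 2.99, and the long noncoding RNA 9430060I03Rik by 2.84. With normexp background correction the rises of Nox1, Rims1 and 9430060I03Rik were 0.40, 0.60 and 0.37. Slc16a12, a transporter of creatine and monocarboxylates, rose by 2.44. For Nox1, Rims1, 9430060I03Rik and Slc16a12, control replicates 2 and 4 held the lowest control levels, but not for the other genes of this paragraph. Tmem170b, Gm14308 and the transcript named ENSMUST00000113046 were well above background on 0 of 5 controls. Tmem170b was well above background on only 2 of 6 irradiated arrays, so it passed the probe filter through another genotype and no bound is given. Its measured mean was -1.66 in irradiated and -4.09 in control blood. Gm14308 was at least 2.14-fold higher, with means of -0.97 after 4 Gy and -2.78 at 0 Gy. ENSMUST00000113046 was at least 2.38-fold higher, with means of -0.78 after 4 Gy and -2.56 at 0 Gy. Gm14393 rose by 1.5. Dcps, the scavenger enzyme that removes caps from decayed mRNA, rose by 1.63, but another of its probes gave 0.19. It was well above background on all 5 controls, and Gm14393, Rims1 and 9430060I03Rik on 3 of 5 each. Of the 25 that fell, 24 were well above background on all 5 controls. Limma adjusted p-values of the 7 genes in this paragraph other than Nox1 and Dcps ran from 0.00833 to 0.0425.

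The B cell lists, whose counts include the called Vpreb3 and Ccr6, were low as a whole in irradiated blood. Of 12 tested genes of the B cell receptor and its signalling, 11 had a lower mean after 4 Gy and 6 did so at an unadjusted limma p under 0.05, where 9.06% of all genes did. Of 16 tested genes of B cell identity and maturation, all 16 had a lower mean and 10 an unadjusted p under 0.05. Their median differences were -1.44 and -1.65, against -0.16 over all genes, and -1.51 and -1.63 with the scan-day block. Only Vpreb3 and Ccr6 passed the adjusted threshold. The members named next were looked up for every array or picked for their small p after the values were seen.

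Cd79a, the signalling chain of the B cell receptor, ran from 1.08 to 3.02 (median 1.56) on irradiated arrays, against 3.11, 4.73, 2.57, 5.47 and 4.61 on controls. Irradiated replicate 2, at 3.02, overlapped control replicate 3, and the difference was -2.34 (SE 0.70, limma adjusted p = 0.111). Its partner Cd79b had a difference of -1.95 with an SE of 1.39 (limma adjusted p = 0.642). Irradiated replicate 2 held 5.72 for Cd79b, inside the control range of 5.09 to 6.49, while the other irradiated arrays ran from 3.05 to 3.91. Ms4a1, which encodes CD20, stood at -1.68 (SE 1.22, limma adjusted p = 0.653).

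Members of the identity list lay nearer the threshold. Cd37, a tetraspanin of mature B cells, differed by -1.20 (SE 0.28, limma adjusted p = 0.0565). Fcer2a, the low-affinity IgE receptor CD23, ran from -3.16 to -1.12 (median -2.75) in irradiated blood, against -0.60, 0.67, -0.79, 0.48 and -0.07 in control blood, without overlap. It was well above background on 0 of 6 irradiated arrays and on 5 of 5 controls, so it was at least 2.99-fold lower after 4 Gy (measured means -2.33 and -0.06), though it did not pass the test (limma adjusted p = 0.0619). Ebf1, the early B cell transcription factor, differed by -2.42 (limma adjusted p = 0.0702), and by -2.80 (limma adjusted p = 0.0449) when irradiated replicate 2 was left out. Pou2f2, an octamer-binding factor of B cells, differed by -1.73 (limma adjusted p = 0.0796). Pax5, which holds B cells to their fate, was well above background on 0 of 6 irradiated arrays and 4 of 5 controls (measured means -2.36 and -1.39, limma adjusted p = 0.557).

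The same array stood apart in each of these lists. The mean level over the receptor list was 1.91 on irradiated replicate 2 and 0.66 to 1.13 on the other irradiated arrays, against 1.86 to 2.62 on the controls. Over the identity list it was 0.96 on replicate 2, against a lowest control of 0.97. Replicate 2 shared its scan day, but not its slide, with replicates 3 to 5, and the part of either was not tested. Without replicate 2 the median of the receptor list was -1.66. Summed on the linear scale, the identity list came to 23.1 to 75.8 times the 75th percentile after 4 Gy, against 70.3 to 135 at 0 Gy.

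Genes of MHC class II, which B cells and other presenting cells use to show peptides to helper T cells, gave a like picture. All 10 tested members had a lower mean after 4 Gy, with a median difference of -1.44. Of these, 5 had an unadjusted limma p under 0.05, where 9.06% of all genes were lower, but 0 passed the adjusted threshold. H2-Ab1, a class II beta chain, ran from 3.91 to 6.83 (median 4.99) in irradiated blood, against 6.33, 7.16, 5.80, 7.11 and 7.40 in control blood. Replicate 2 overlapped the controls, and the difference was -1.66 (SE 0.81, limma adjusted p = 0.409). Cd74, the invariant chain that escorts class II proteins, differed by -1.82 (SE 0.87, limma adjusted p = 0.392), with 4.96 on replicate 2 and 2.89 to 3.65 on the other irradiated arrays. Ciita, the class II transactivator, did not follow, at -0.24 (SE 0.44, limma adjusted p = 0.905).

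Among red cell lists, those of the membrane and of enzymes had the lowest medians in irradiated blood. Of 17 tested genes of the red cell membrane and skeleton, 12 were lower at an unadjusted limma p under 0.05, where 9.06% of all genes were, and 1, Epb42, passed the adjusted threshold. The median was -1.54, and -1.12 with the scan-day block. On the mean over this list all 6 irradiated arrays, at 1.0 to 2.57, lay below the controls, at 2.79 to 3.19. Ank1, the ankyrin that anchors band 3, had the largest negative difference in the list, -2.88 (SE 0.77, limma adjusted p = 0.0767). Kel, the Kell antigen, differed by -1.82 and Rhd, the Rhesus antigen, by -1.77 (limma adjusted p = 0.0716 and 0.0767).

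Slc4a1, band 3 itself, ran from 5.45 to 9.36 (median 6.51) after 4 Gy, against 8.76, 8.77, 8.74, 8.89 and 8.63 at 0 Gy. Irradiated replicate 6 exceeded every control and the other irradiated arrays lay below all of them. The difference was -1.84 (SE 0.61, limma adjusted p = 0.156) and -0.96 with the scan-day block.

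Of 17 tested red cell enzymes and reticulocyte clearance genes, 12 were lower at an unadjusted limma p under 0.05 (9.06% of all genes), 0 passed the adjusted threshold, and the median was -1.19. Gpx1, a glutathione peroxidase, differed by -1.47 and Trim58, a ubiquitin ligase of late erythroblasts, by -2.32 (limma adjusted p = 0.0767 and 0.0702). Trim10, a further ubiquitin ligase of erythroid cells, differed by -1.77 (limma adjusted p = 0.0673). Haem synthesis and iron genes were less low, with a median of -0.63 over 16 genes, 4 of them lower at an unadjusted p under 0.05 (9.06% of all genes). Fech, which inserts iron into haem, differed by -1.06 (limma adjusted p = 0.274). Alas2, the erythroid first enzyme of haem synthesis, was among the brightest genes on every array and differed by -0.34 (SE 0.38, limma adjusted p = 0.817).

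Globins and erythroid transcription factors had medians near 0 on the scale used here. The 8 tested globins had a median of 0.15, and Hba-a1, an alpha globin, ran from 12.01 to 14.22 (median 13.12) after 4 Gy, against 12.53 to 13.25 (median 12.79) at 0 Gy. The groups overlapped, and on the spike-in scale the difference of 0.33 turned to -0.97. The globin transcripts had been depleted before labelling. The 11 erythroid transcription factors and the Epo receptor gene had a median of 0.00. At an unadjusted limma p under 0.05, 3 were lower and 0 higher (9.06% and 3.00% of all genes). On the mean over that list 4 of 6 irradiated arrays lay below all controls. Gata1, the master factor of red cell genes, differed by 0.08, whereas Lmo2, a partner in its complex, differed by -1.36 (limma adjusted p = 0.974 and 0.140).

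**Figure D3:**
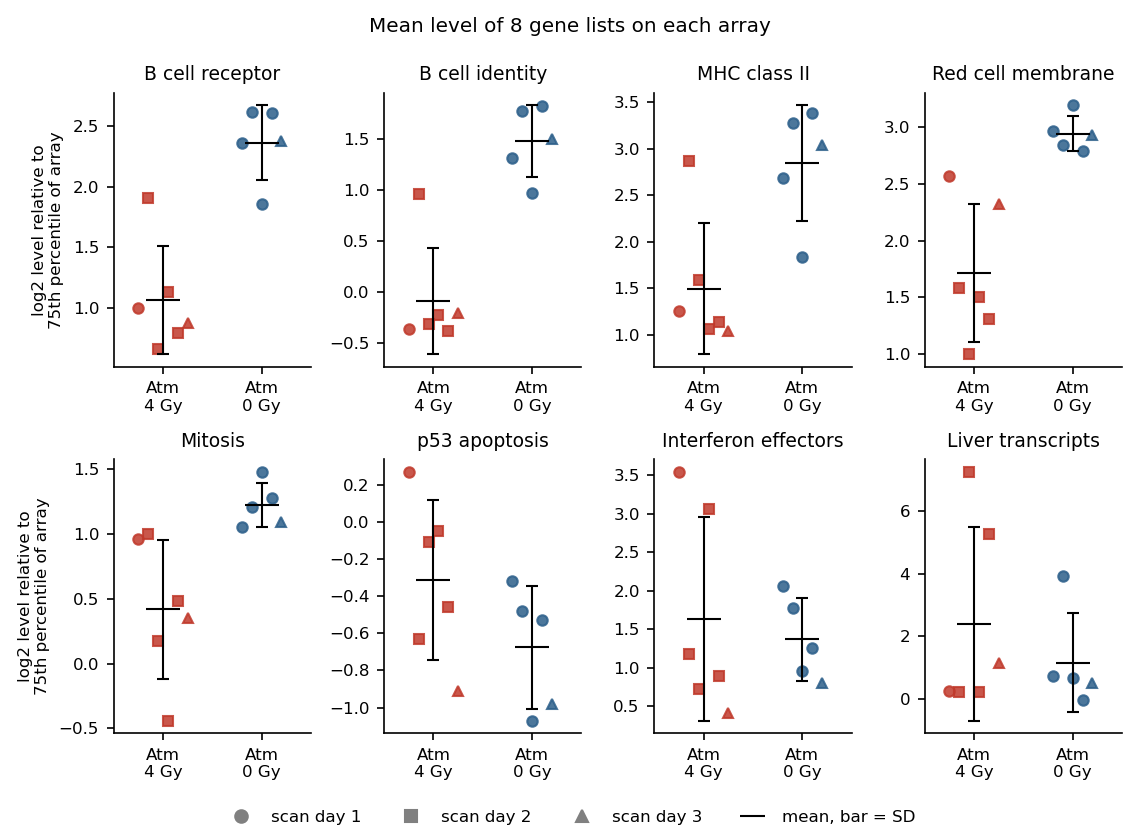
Mean level over the tested genes of 8 lists on each array (vertical axis, log2 relative to the 75th percentile of the array), Atm 4 Gy on the left and Atm 0 Gy on the right of each panel, with marker shape for scan day and mean and SD in black. Red cell membrane genes separate the groups, and irradiated replicate 2 lies near the controls in the B cell panels. Irradiated replicates 1 and 4 stand highest in the interferon panel. Irradiated replicates 3 and 5 and control replicate 2 stand highest in the liver panel.

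Genes of cell division were low in part. Of 13 tested genes of the mitotic spindle and division, 10 had a lower mean, 5 were lower at an unadjusted limma p under 0.05 (9.06% of all genes) and 1, Nusap1, passed the adjusted threshold. The list median was -0.66. Ccna2, the S-phase and mitotic cyclin, ran from 0.35 to 2.03 (median 1.25) in irradiated blood, against 2.63, 2.96, 3.33, 2.94 and 3.02 in control blood, without overlap. It differed by -1.72 (SE 0.43, limma adjusted p = 0.0673). Ube2c, the ubiquitin-conjugating enzyme of mitotic exit, differed by -1.58 (limma adjusted p = 0.0796). Mki67, the Ki-67 proliferation antigen, overlapped between the groups, at -0.58 (SE 0.46, limma adjusted p = 0.691) and at 0.05 with the scan-day block. Of 18 DNA replication genes 1 was lower at an unadjusted p under 0.05, namely Mcm2, a subunit of the replicative helicase, at -1.07 (limma adjusted p = 0.148).

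No p53 target passed the test in ATM-deficient blood. Of 14 tested targets in growth arrest and feedback, 2 were higher and 1 lower at an unadjusted limma p under 0.05, where 3.00% of all genes were higher. Of 11 targets in apoptosis 4 were higher, and of 11 in repair and metabolism 3 were higher at that threshold. The list medians were 0.41, 0.60 and 0.10, against -0.16 over all genes, 0.50, 0.75 and 0.49 with the scan-day block, and -0.89, -0.70 and -1.20 when arrays were scaled to the spike-ins.

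Cdkn1a, the cyclin-dependent kinase inhibitor p21, had levels of 2.16, 0.43, 1.02, 1.23, -0.18 and -1.41 after 4 Gy, against -1.43, -0.17, -0.61, -0.37 and -0.75 at 0 Gy. Replicates 1 to 4 lay above every control, replicate 5 within 0.01 of the highest control, and replicate 6 level with the lowest. The difference was 1.21 (SE 0.51, limma adjusted p = 0.316). Bax, which opens the mitochondrial outer membrane, ran from 1.03 to 3.89 (median 2.70), against 2.16, 1.91, 1.44, 2.24 and 1.40. Replicate 6 was the lowest of all, and the difference was 0.87 (SE 0.36, limma adjusted p = 0.300). Bbc3, the apoptosis inducer PUMA, had 1.17 to 3.02 (median 1.97), against 1.02, 1.34, 1.07, 1.27 and 1.07. Here 5 of 6 irradiated arrays lay above every control, at a difference of 0.89 (SE 0.39, limma adjusted p = 0.333).

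Irradiated replicate 6 was low for several further targets, but not for p53 targets alone. It was the lowest of the 11 arrays on the means of platelet (4.49), proteasome (1.49) and respiratory chain genes (2.95), among other lists. Over globins it was the highest, at 9.98. Over the p53 targets in repair and metabolism it held -0.67, within the control range of -1.32 to -0.64. Ccng1, cyclin G1, stood at -2.41 on replicate 6 and at 1.08 to 2.51 on the other irradiated arrays, against -0.26 to 0.30 in the controls. Its difference was 0.86 (SE 0.59, limma adjusted p = 0.616), and 1.53 (limma adjusted p = 0.101) without replicate 6. Trp53inp1, a p53-induced protein of apoptosis and autophagy, held 0.09 on replicate 6 and at least 1.99 on the others, against 1.32 to 2.25 in the controls. Phlda3, an inhibitor of Akt signalling, held -0.85 on replicate 6 and 1.82 to 4.19 on the others, against 1.18 to 2.18. Aen, an exonuclease of apoptosis, differed by 0.75 (limma adjusted p = 0.561), and by 1.17 (limma adjusted p = 0.169) without replicate 6. Replicate 6 and its day-3 control gave -0.66 for Cdkn1a, -0.37 for Bax and -2.63 for Ccng1, whereas replicate 1 and the controls of day 1 gave 2.80, 1.96 and 2.45. Replicate 6 was also the array with the fewest probes well above background (20.02%), and the part of signal strength in these values was not tested.

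Among the remaining targets, Mdm2, the ubiquitin ligase that p53 itself induces, differed by 0.29 (SE 0.37, limma adjusted p = 0.846). Gdf15, a stress cytokine, was well above background on 2 of 6 irradiated arrays and 1 of 5 controls, at 1.79 (SE 0.91, limma adjusted p = 0.434). Ei24, an endoplasmic reticulum protein induced by p53, lay at 1.99 (limma adjusted p = 0.0958), the smallest adjusted p of the 3 lists. Tnfrsf10b, a death receptor for TRAIL, was well above background on 0 of 11 arrays, so no difference is given for it. Of 12 tested genes of double-strand break signalling and repair, Xrcc6, the Ku70 subunit, had an unadjusted p under 0.05, at -0.85 (limma adjusted p = 0.272), and the list median was -0.46.

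**Figure D4:**
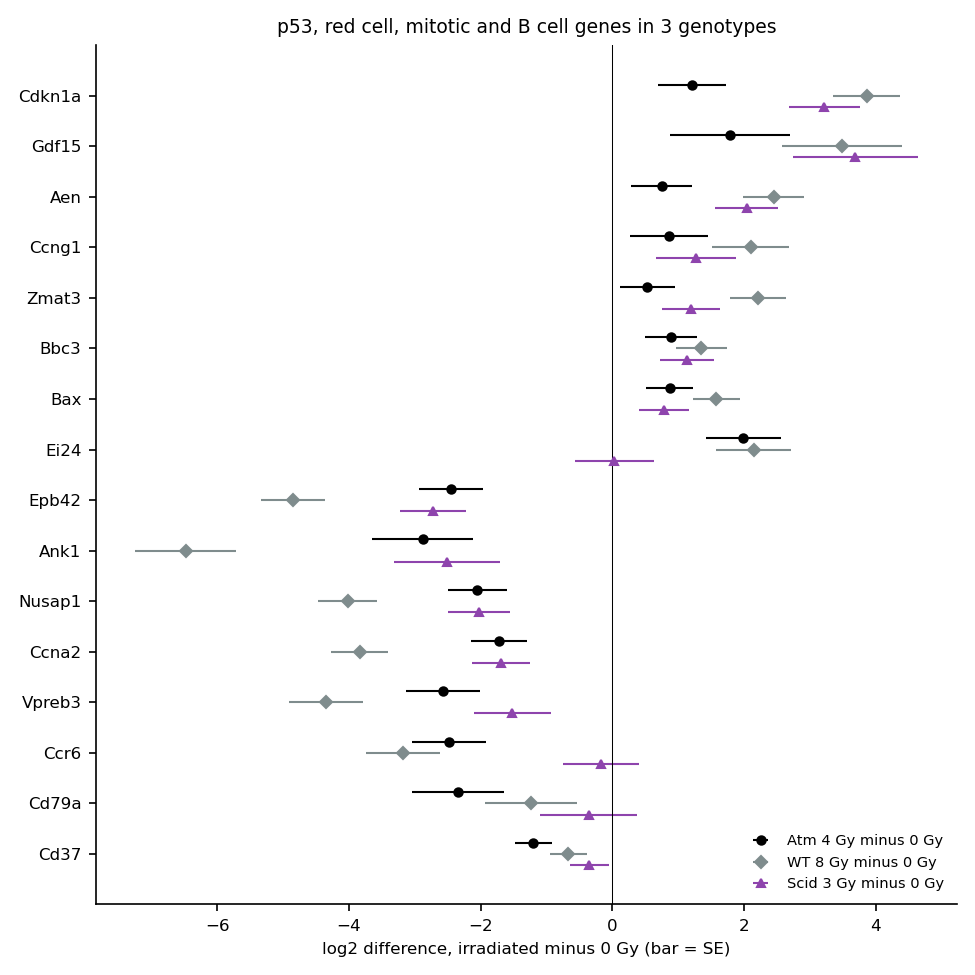
The log2 difference between irradiated and 0 Gy blood (horizontal axis, bar = SE) of 16 p53, red cell, mitotic and B cell genes in ATM-deficient, wild-type and Scid mice, which received 4, 8 and 3 Gy. Cdkn1a stands at 1.21 in ATM-deficient, 3.86 in wild-type and 3.22 in Scid blood, and Ank1 at -2.88, -6.48 and -2.51 in the same order.

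Whether the response of ATM-deficient blood differed from that of the other genotypes was tested as the difference between the differences. Limma called 0 genes for ATM-deficient minus wild-type, with 1296 (8.55%) at an unadjusted p under 0.05, of which 772 (5.09%) were higher and 524 (3.46%) lower. It called 0 for ATM-deficient minus Scid, with 639 (4.22%) at an unadjusted p under 0.05. The counts that follow use unadjusted p-values, and dose differs along with genotype.

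No red cell gene passed the adjusted test of the difference from wild-type blood, and the counts differed between lists. Of the 17 membrane genes, 11 had a higher difference of differences at an unadjusted p under 0.05, where 5.09% of all genes had. So had 9 of the 17 enzymes, 4 of the 8 globins and 6 of the 13 division genes. Erythroid transcription factors had 2 of 11, with a median difference of differences of -0.19, against 2.08 for the membrane list. The median over the membrane list was -1.54 in ATM-deficient, -3.80 in wild-type and -1.73 in Scid blood. For Epb42 the differences were -2.45, -4.85 and -2.73, with an unadjusted limma p of 0.00119 for ATM-deficient minus wild-type. Against Scid, 0 of the 17 membrane genes differed at that threshold.

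For p53 targets in growth arrest the difference of differences was more often lower than higher. Of the 14 arrest genes, 4 had a lower difference of differences than in wild-type blood and 0 a higher one (3.46% and 5.09% of all genes). The other p53 lists did not share this. Of 11 apoptosis targets 1 was lower and 0 higher, and of 11 repair and metabolism targets 0 were lower and 1 higher. Cdkn1a gave an unadjusted limma p of 0.000914 against wild-type and 0.0108 against Scid. Zmat3, an RNA-binding p53 target, stood at 0.53 in ATM-deficient, 2.21 in wild-type and 1.20 in Scid blood, with an unadjusted p of 0.00778 against wild-type. Bbc3 stood at 0.89, 1.35 and 1.13, and Bax at 0.87, 1.58 and 0.78, with unadjusted p-values of 0.413 and 0.178 against wild-type. Gadd45a, a stress protein of DNA repair and arrest, lay at -0.67 in ATM-deficient and -2.18 in wild-type blood.

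The B cell identity list had a lower median than in either other genotype. The median over the identity list was -1.65 in ATM-deficient, -0.91 in wild-type and -0.41 in Scid blood. The genes called lower at a limma adjusted p under 0.05 were ordered otherwise. Of the 16, they were 1 in ATM-deficient, 3 in wild-type and 0 in Scid blood. Of all genes 0.165%, 6.07% and 1.02% were called lower, in the same order. For Vpreb3 the differences were -2.57, -4.35 and -1.52. The controls of both other genotypes were uneven. On the mean over the list, wild-type control replicates 3 and 6 held -1.40 and -1.54, against 0.14 to 1.85 on the others. Scid control replicate 4 held 0.90, against -2.23 to -1.28 on the others. The part of these arrays in the 2 medians was not tested. Of its 16 genes 0 differed from wild-type at an unadjusted p under 0.05, and 5 were lower than in Scid, where 2.35% of all genes were. For Ccr6 the differences were -2.48, -3.18 and -0.17, with an unadjusted limma p of 0.00748 against Scid. Scid mice lack functional antigen receptors. The median of Vpreb3 was -2.46 in Scid 3 Gy and -0.53 in Scid 0 Gy blood, against 2.32 in the ATM-deficient controls. Its level reached 0.77 in Scid 0 Gy blood and went down to -1.22 in wild-type 0 Gy blood. Scid control replicate 4 was also high on the mean over T cell genes, at 1.83, against -0.18 to 0.55 on the other Scid controls.

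**Figure D5:**
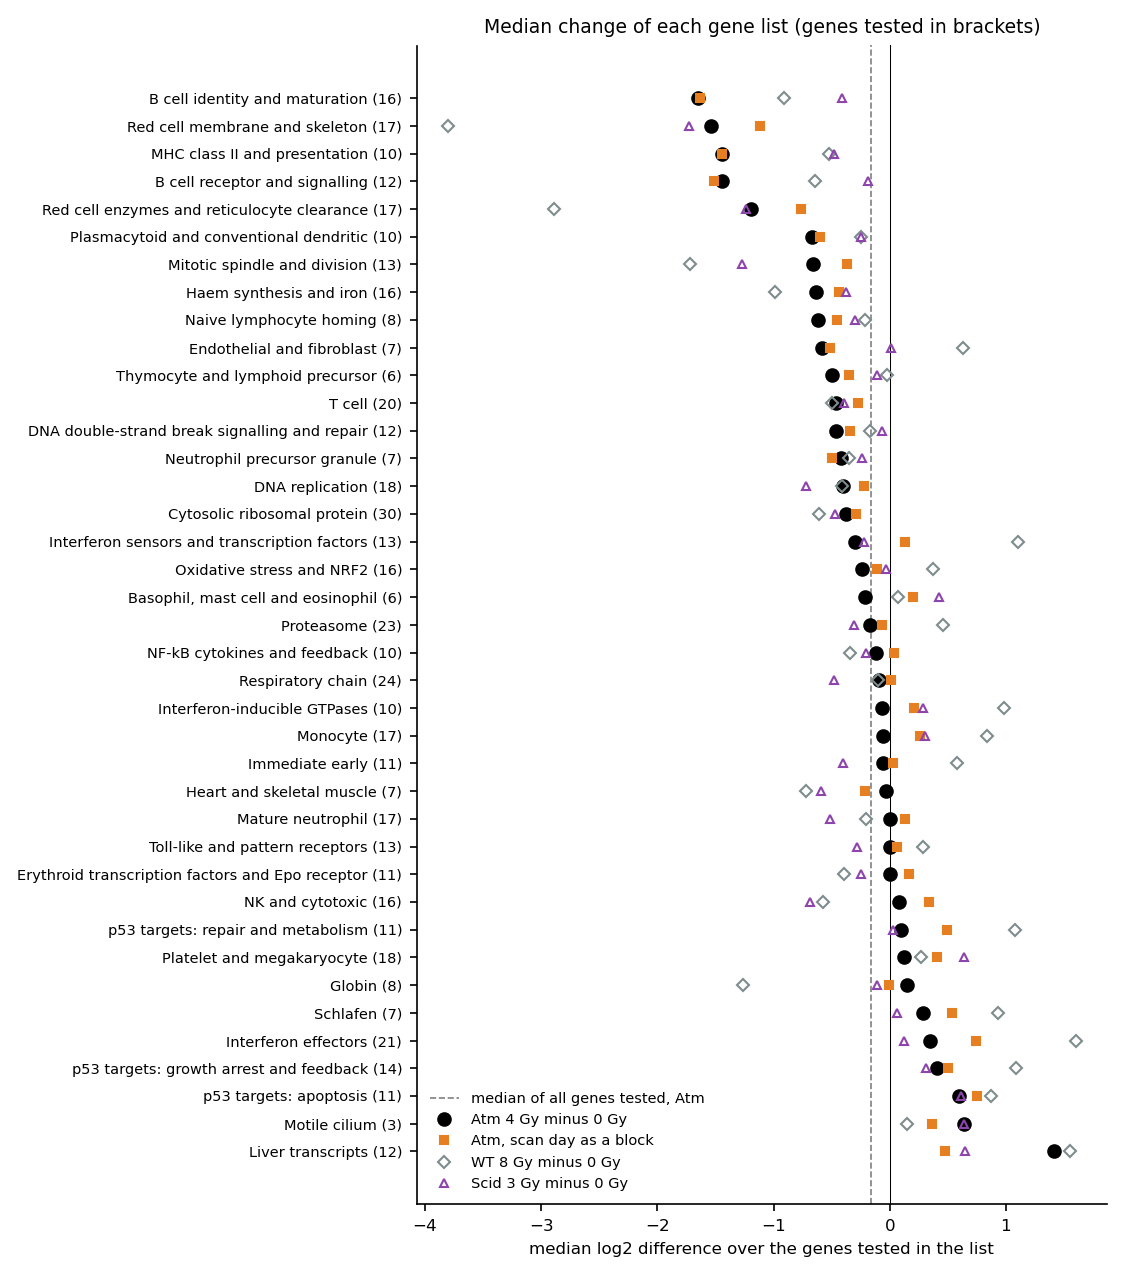
Median log2 difference over the tested genes of each of 39 lists (horizontal axis) in ATM-deficient blood with and without the scan-day block, and in wild-type and Scid blood, ordered by the first. B cell, MHC class II and red cell membrane lists lie lowest in ATM-deficient blood (-1.65 to -1.44), and liver transcripts lie highest (1.41).

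Interferon genes varied among the irradiated mice more than between the groups. The 21 tested effectors had a median of 0.35 and 0 called. At an unadjusted limma p under 0.05, 1 was higher and 2 were lower (3.00% and 9.06% of all genes). On the mean over the list, replicates 1 and 4 stood at 3.55 and 3.06 and the other irradiated arrays at 0.41 to 1.18, against 0.80 to 2.07 in the controls. Ifit3, an antiviral RNA-binding protein, held 3.69 and 3.47 on replicates 1 and 4 and -0.91 to -0.38 on the others, against -1.43 to 0.15. Slfn4, a Schlafen gene of myeloid cells, held 2.75 and 1.91 on those same arrays and -1.57 to -0.70 on the others, against -2.92 to -0.16. Its difference was 1.76 (SE 0.73, limma adjusted p = 0.300).

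Replicates 1 and 4 were scanned on different days. They also stood highest of the irradiated arrays on the means of other lists. Over natural killer genes they held 2.51 and 2.09, against -0.04 to 0.75 on the other irradiated arrays, and over platelet genes 6.93 and 6.87, against 4.49 to 5.57. Over monocyte genes they held 3.68 and 3.05, against 1.52 to 2.73, and the part of these lists in the interferon values was not tested. The median of the effectors was 2.15 within day 1 and -0.88 within day 3, and -0.07 without replicate 1. Rsad2, the antiviral enzyme viperin, went the other way, at 5.21 to 7.99 (median 6.36) after 4 Gy, against 8.52, 8.01, 8.81, 8.13 and 8.11 at 0 Gy. Its groups did not overlap, with a difference of -1.83 (SE 0.54, limma adjusted p = 0.102). Oas2, which makes the second messenger that activates RNase L, stood at 0.35 in ATM-deficient and 4.07 in wild-type blood, an unadjusted limma p of 0.00235 for the difference. Of the 21 effectors 7 were lower and 2 higher than in wild-type blood at an unadjusted p under 0.05 (3.46% and 5.09% of all genes).

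Other blood cell lists showed 0 called genes. T cell genes had a median of -0.46 over 20 tested. Cd8a, the coreceptor of cytotoxic T cells, ran from -2.80 to -1.41 (median -2.05) in irradiated blood, against -0.43, -0.50, -0.63, -0.57 and -0.91 in control blood, without overlap. It differed by -1.53 (SE 0.49, limma adjusted p = 0.146), while Cd3e, a chain of the T cell receptor complex, differed by -0.34 (limma adjusted p = 0.804). Ccr7, the receptor that guides naive lymphocytes to lymph nodes, differed by -1.73 (SE 0.83, limma adjusted p = 0.402). Klrb1c, the NK1.1 receptor of natural killer cells, differed by 0.45 (SE 0.51, limma adjusted p = 0.817), and the natural killer list had a median of 0.08.

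Myeloid and platelet lists held 0 called genes. Medians were -0.06 over 17 monocyte genes, 0.00 over 17 mature neutrophil genes, -0.42 over 7 genes of neutrophil precursor granules (6 of them lower in mean) and 0.12 over 18 platelet genes. S100a8 and S100a9, calcium-binding proteins of neutrophils, differed by 0.02 and 0.20, and each ranged over more than 2 log2 units within both groups. Csf1r, the receptor of monocyte growth factor, differed by 0.58 (SE 0.33, limma adjusted p = 0.529). Pf4, platelet factor 4, differed by 0.01 (-1.29 on the spike-in scale), whereas Itga2b, the platelet integrin alpha IIb, differed by 1.54 (SE 0.61, limma adjusted p = 0.274). Of the monocyte genes, 5 had a lower difference of differences than in wild-type blood at an unadjusted p under 0.05 (3.46% of all genes).

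Transcripts of other tissues followed a few arrays. Of 12 tested liver transcripts, 11 had a higher mean after 4 Gy, with a median of 1.41, 0.48 with the scan-day block and -1.38 within day 1, and 0 were called or passed an unadjusted p under 0.05. Their mean level was 7.25 on irradiated replicate 3 and 5.27 on replicate 5, and 0.23 to 1.15 on the other irradiated arrays, against 3.92 on control replicate 2 and -0.03 to 0.73 on the other controls. Alb, serum albumin, ran from -3.48 to 9.81 in irradiated blood, against -3.48 to 4.78 in control blood. Without those 3 arrays limma called 0 genes, with 1015 at an unadjusted p under 0.05, and all 36 genes kept their direction and an unadjusted p under 0.05. Muscle transcripts had a median of -0.03 over 7 genes. Myh6, the cardiac myosin heavy chain, ran from -2.06 to 1.48 after 4 Gy, against -1.52 to 1.45 at 0 Gy. Cytosolic ribosomal protein genes had a median of -0.38 and 27 of 30 lower in mean.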

How the data were processed

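Whole-blood RNA of 32 mice was hybridised to 1-colour Agilent arrays, and the 11 ATM-deficient arrays were compared. For each array the authors deposited the scanner output, in which the processed signal of a spot is an intensity, background-subtracted by Agilent Feature Extraction (version 11.5.1.1 per the file headers, 12.0.2 per the submitters' processing notes) and not scaled between arrays. The deposited value table holds log2 values of the same arrays, which matched the scanner's processed signal in log2 after adding 1 constant per array (within 0.01 for 98.12 to 99.0% of probes on the ATM-deficient arrays, whose medians were 5.67 to 6.1). How the constant and the probes given a value were chosen is not given in the sources used here. It served as an alternative.

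Outlier spots (132 to 306 per ATM-deficient array) were left out, spots of 1 probe were averaged, and log2 signals were centred on the 75th percentile of their array. Probes had to be well above background on 4 or more arrays of some group, which retained 18367 of 39429. Each gene was its kept probe of highest mean signal, which gave 15159 genes. Limma 3.58.1 in R 4.3.3 fitted 6 group means over all 32 arrays, and p-values were adjusted by Benjamini-Hochberg over all genes. A gene whose group had no probe above background has only a bound there, taken from the lowest signal well above background on each array, as "at least N-fold". The labels call the samples replicates of a group, 1 mouse each. The number of arrays limits the precision. Fits were tested on simulated data first.

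Genes named are the called ones, except 1 that is not reported here, the members looked up by rule and the brightest members of each list. Members named beyond that were chosen after their values were seen. The comparison, the 39 lists and the rule were chosen with earlier results of these data known. Alternatives were other scalings, background correction, probe filters, blocks for scan day, slide and replicate number, array weights and omitted arrays.

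Replicate numbers did not pair the mice. Deviations of same-numbered arrays correlated between -0.411 and 0.331 over 5 pairs. Probe positions are in mm9, per the file headers, and promoters in GRCm38.p6.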

Additional observations from a re-analysis of the deposited data

Results flagged for a closer look

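A group of arrays was searched for a single array whose distance from its nearest neighbour took up most of the group's range. This was done for 92 genes and 39 lists in both ATM-deficient groups, and 20 of 262 groups had such an array, where chance alone gives about 5%.

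Irradiated replicate 2 stood far above the other irradiated arrays for B cell and class II genes. It held 1.91 as the mean of the B cell receptor list, 0.96 of the B cell identity list and 2.87 of the MHC class II list. Of single genes it held 5.72 for Cd79b and 4.96 for Cd74.

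Irradiated replicate 6 stood far below the others of its group for the p53 targets Ccng1, at -2.41, and Trp53inp1, at 0.09. Irradiated replicate 1, of scan day 1, stood above the others for 1110008P14Rik, at 2.18, and below them for Rs5-8s1, at 2.20. Irradiated replicate 3 stood low for Alas2, at 11.08, and for Csf1r, at 5.12, and replicate 4 for Acmsd, at -3.08.

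Among the controls, replicate 2 stood above the rest for the liver list, at 3.92, for Alb, at 4.78, for Myh6, at 1.45, and for Ei24, at -1.45. Control replicate 1 stood high for the T cell list, at 1.82, and for Gm14308, at -2.17. Control replicate 3 stood high for Epb42, at 3.30, and control replicate 5 for Gdf15, at -0.77.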

How the results depend on the processing

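The count of 36 genes called after 4 Gy moved with most choices. It was 1 with normexp background correction, 184 with scaling to the array median, 108 with the percentile of probes detected on all arrays, 8602 with scaling to the spike-ins and 339 with the authors' values. It was 7 with no filter on dim probes, 110 with probes well above background on all arrays and 62 with probes detected in either Atm group. It was 0 with only the Atm arrays in the fit, where 1801 genes had an unadjusted limma p under 0.05, 0 with scan day as a fixed block (1059), 0 with slide as a fixed block (937) and 3 with scan day as a random block. It was 546 with array weights, 268 with brightness as a covariate and 11 without irradiated replicate 3 and 3 wild-type arrays bright in liver transcripts. Leaving out 1 Atm array gave 2 to 274. It was 0 without the 3 Atm arrays bright in liver transcripts and 72 without irradiated replicates 2 and 6, both chosen after seeing the data. With replicate number as a block, which the pairing check did not bear out, 75 genes were called, and 2 of 5 irradiated arrays correlated best with the control of their number.

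For the difference from wild-type, the count of 0 became 13065 on the spike-in scale and 36 with slide as a fixed block. For the difference from Scid it became 1951 on the spike-in scale. The cause of these shifts was not tested. On the spike-in scale 8593 of all genes were called lower after 4 Gy. Among the named genes alone, 8 turned from higher to lower and were called on that scale. These were Cox6c at -1.19, Ephx1 at -1.26, Ftl1 at -0.88, Hba-a1 at -0.97, Hba-a2 at -1.13, Kdr at -1.15, Nfe2 at -1.19 and Pf4 at -1.29. Over all alternatives, values of named genes kept direction and side of the threshold in 3232 cases, lost the call in 474, gained it in 90 (52 on the spike-in scale) and moved by over 1 SD in 44 (24 on that scale). List medians stayed within 1 SD in 1145 cases and moved further in 55 (38 on that scale). Genes near background, as 6 of the 11 that rose were in most controls, are limited by signal. With normexp background correction the rise of Hydin was 0.50. Differences of genes that fell shrank too, as for Vpreb3, at -0.87.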

Other observations

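Dendritic cell genes had a list median of -0.67 and 0 called. Of 10 tested, 3 were lower after 4 Gy at an unadjusted limma p under 0.05, where 9.06% of all genes were. These were Flt3, a receptor of dendritic and progenitor cells, at -1.16, Irf8, a transcription factor of dendritic and B cells, at -1.5, and Tcf4, a factor of plasmacytoid dendritic cells, at -1.0 (limma adjusted p = 0.276, 0.318 and 0.352). Siglech, a surface marker of plasmacytoid dendritic cells, lay at 0.84 (limma adjusted p = 0.541). Pattern receptors also included 3 of 13 that were lower at that threshold. Cd36, a scavenger receptor, lay at -1.29, Tlr1, a receptor for bacterial lipopeptides, at -1.59, and Tlr9, a receptor for unmethylated DNA, at -0.58 (limma adjusted p = 0.207, 0.211 and 0.384).

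Other lists held 0 called genes. Medians were -0.50 over 6 thymocyte and precursor genes, -0.62 over 8 genes of naive lymphocyte homing and -0.21 over 6 genes of basophils, mast cells and eosinophils. They were -0.09 over 24 respiratory chain genes, -0.17 over 23 proteasome genes and -0.24 over 16 oxidative stress genes. In that last list Nqo1, a quinone reductase under NRF2, lay at -1.28 (limma adjusted p = 0.205). Interferon sensors and transcription factors had a median of -0.30 over 13 genes, and Ifih1, the RNA sensor MDA5, lay at 0.89 (limma adjusted p = 0.197). Interferon-inducible GTPases had -0.07 over 10 genes and Schlafen genes 0.29, with all 7 higher in mean. Medians were -0.12 over 10 NF-kB genes, -0.06 over 11 immediate early genes and -0.58 over 7 endothelial and fibroblast genes. Nfkb2, the p100 subunit of NF-kB, lay at -0.88 and Elane, the neutrophil elastase made in marrow precursors, at -1.37 (limma adjusted p = 0.158 and 0.221).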
